A study of Mus musculus with 6 samples.

Results

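The genes of the 4 Hox clusters were examined in bone marrow haematopoietic stem cells (HSC) sorted from PU.1 knockdown and wildtype mice. Members were the probe sets whose single gene symbol is that of a Hoxa, Hoxb, Hoxc or Hoxd gene. They numbered 48 of the 44991 probe sets and represented 33 of 18186 genes, with 9 genes in the Hoxa, 9 in the Hoxb, 7 in the Hoxc and 8 in the Hoxd cluster. Each gene was read from its probe set of highest mean over the 6 arrays.

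The PU.1 knockdown group (PU.1 KD) and the wildtype group (WT) each had 3 Affymetrix Mouse Genome 430 2.0 arrays, and each array held amplified RNA pooled from 3 animals. PU.1, the product of Spi1, belongs to the ETS transcription factors and is required to form myeloid and B cells. The means of lowering PU.1, the mouse strain and age and the sort markers are not given in the labels. Values are log2(intensity + 16) after quantile normalisation, and differences are PU.1 KD minus WT with their standard error (SE) from limma.

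Hox genes encode homeodomain transcription factors that are arranged in clusters and numbered by their order along them, and genes of the same number in different clusters are paralogues. In blood, mainly genes of the Hoxa and Hoxb clusters are known to be active, most of all in stem and progenitor cells, and they are shut off as cells mature. Their proteins bind DNA together with TALE homeodomain cofactors such as Meis1 and the Pbx proteins, MLL proteins keep the clusters active, and Polycomb proteins keep them silent. Hoxa9 with Meis1 is a known driver of mouse leukaemia, and forced Hoxb4 expands mouse HSC.

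For 3 of the genes whose values are described below, the 250 bases before the RefSeq start are shown in build GRCm38.p6, 5′ to 3′ on the gene's strand. Hoxa9 and Hoxa5 were the Hoxa genes above background and Hoxb4 a Hoxb gene with an entry. Capitals mark GAGGAA, the core of PU.1 binding sites, on either strand. The Hoxa9 stretch lies at chr6:52227371-52227620 on the minus strand, that of Hoxa5 at chr6:52204588-52204837 on the minus strand and that of Hoxb4 at chr11:96318017-96318266 on the plus strand.
Hoxa9: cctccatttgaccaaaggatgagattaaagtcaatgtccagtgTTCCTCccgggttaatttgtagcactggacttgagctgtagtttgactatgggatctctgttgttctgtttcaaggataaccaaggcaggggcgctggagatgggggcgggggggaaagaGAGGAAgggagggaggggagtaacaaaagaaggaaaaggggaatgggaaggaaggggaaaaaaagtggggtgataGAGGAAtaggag
Hoxa5: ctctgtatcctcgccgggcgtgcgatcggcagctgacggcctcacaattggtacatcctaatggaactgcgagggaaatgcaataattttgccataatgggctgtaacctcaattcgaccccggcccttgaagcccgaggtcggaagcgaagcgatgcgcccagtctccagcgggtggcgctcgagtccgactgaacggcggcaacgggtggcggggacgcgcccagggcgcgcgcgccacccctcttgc
Hoxb4: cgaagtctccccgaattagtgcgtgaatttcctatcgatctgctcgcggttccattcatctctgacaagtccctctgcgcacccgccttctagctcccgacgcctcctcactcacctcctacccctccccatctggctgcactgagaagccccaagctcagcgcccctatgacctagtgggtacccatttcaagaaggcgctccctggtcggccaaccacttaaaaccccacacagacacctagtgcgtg

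GAGGAA occurred 3 times before Hoxa9, counting TTCCTC on the other strand, and 0 times before Hoxa5 and Hoxb4. Of all 32851 promoter entries, 23.3% held it at least once in the same 250 bases. The MEIS motif TGACAG and the joint HOX and PBX motif TGATNNAT, searched on both strands, had 0 matches in these 3 stretches, against 15.9% and 7.68% of all entries. The stretch before Hoxa9 was poor in CpG dinucleotides, with 3, while that before Hoxa5 held 28 and that before Hoxb4 held 14, beside a median of 6 over all entries. Over the 21 entries of 19 Hox genes, GAGGAA was found in 3, TGACAG in 2 and TGATNNAT in 3. These matches describe the sequence and were not tested against expression.

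Spi1 checks the labels. It had log2 values of 8.73, 8.55 and 7.06 in PU.1 KD pools 1, 2 and 3, against 10.13, 9.42 and 10.08 in WT pools 1, 2 and 3, so all PU.1 KD pools lay below all WT pools. The difference was -1.76 (SE 0.43), with a limma adjusted p of 0.503, and PU.1 KD pool 3 was below background. Of the 18 stem and progenitor markers listed, 16 were measured and 12 were above background on all 6 arrays. Kit, the stem cell factor receptor, lay between 10.19 and 10.48 in PU.1 KD pools and between 10.35 and 11.17 in WT pools. Of the 16 markers, 10 were lower and 6 higher in PU.1 KD pools and 0 passed, with a smallest limma adjusted p of 0.458. The groups were separate for 3 of the 16, against 13.8% of all genes. Of the 3, Cd48 (difference 0.91, SE 0.24) and Eng (0.47, SE 0.17) were higher in PU.1 KD pools. Tek, the third of them, was lower and above background in 1 WT pool only. Neutrophil granule genes were also present, with 11 of 12 above background on all arrays. WT pool 2 stood apart, with a stem marker mean of 9.76 beside 9.05 to 9.25 on the other arrays, and a neutrophil granule mean of 10.09 beside 11.23 to 11.80. PU.1 KD pool 3 had a mean of 7.72 over 9 monocyte and macrophage genes, beside 8.84 to 9.78 on the others. PU.1 KD pool 2 had a mean of 7.32 over 9 megakaryocyte and platelet genes, beside 8.91 to 10.30 on the others, and the highest erythroid mean, 10.23 beside 8.49 to 9.81. All 9 megakaryocyte and platelet genes and all 9 monocyte and macrophage genes had the lower mean in PU.1 KD pools, as had 46.6% of all genes. Of 9 mast cell, basophil and eosinophil genes, 7 had separated groups, against 13.8% of all genes. Among the 7, 4 were higher and 3 lower in PU.1 KD pools, and 0 of the 9 were above background on all 6 arrays. The part of these other cell types in the Hox values was not tested.

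No detection calls were used, so a background level was taken from olfactory receptor genes, which blood stem cells are not known to use. The 95th percentile of their 43 probe sets lay between 7.58 and 7.89 on the 6 arrays. Of the 33 Hox genes, 6 were above this level on all arrays, namely Hoxa5, Hoxa9, Hoxb3, Hoxb4, Hoxb5 and Hoxc5. Hoxd13 was above it in all 3 WT pools and in 2 PU.1 KD pools. Hoxa3, Hoxb2 and Hoxb13 exceeded it on 1 or 2 arrays, and the other 23 on 0, with means from 4.58 to 7.29 in PU.1 KD pools and from 4.70 to 7.31 in WT pools. Over all genes, 40.5% were above background on 6 arrays. For the 23 genes no fold is read from their differences, since both groups lay within the range of the olfactory receptor probe sets.

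None of the 48 Hox probe sets was called by limma at a threshold of 0.05 after Benjamini-Hochberg adjustment across the whole table, and their smallest adjusted p was 0.655. The background was 0.0%, since 0 of the 44991 probe sets passed. Spi1, the targeted gene, was not called either (limma adjusted p 0.503), so the lack of a call does not show equal levels. At an unadjusted p under 0.05 there was 1 Hox gene of 33, Hoxa4, against 7.63% of all genes. The groups did not overlap for 3 of the 33 genes, or 9.09%, against 13.8% of all genes. Hoxa4 and Hoxb3 were lower in the PU.1 KD pools, as were 5.39% of all genes, and Hoxc13 was higher, as were 8.42% of all genes. Of the 3, only Hoxb3 was above background.

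PU.1 KD means were lower for 22 and higher for 11 of the 33 Hox genes, with a median difference of -0.05 beside 0.02 over all genes. Among all genes 46.6% had a lower PU.1 KD mean. The Hox differences ran from -0.55 to 0.40. These counts and differences include the 23 genes below background on every array. Of the 7 genes above background in at least 1 whole group, 6 had a 95% interval of the difference inside 2-fold in either direction, with Hoxa5 as the exception, against 93.2% of the 7370 genes above background on 6 arrays.

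**Figure D1:**
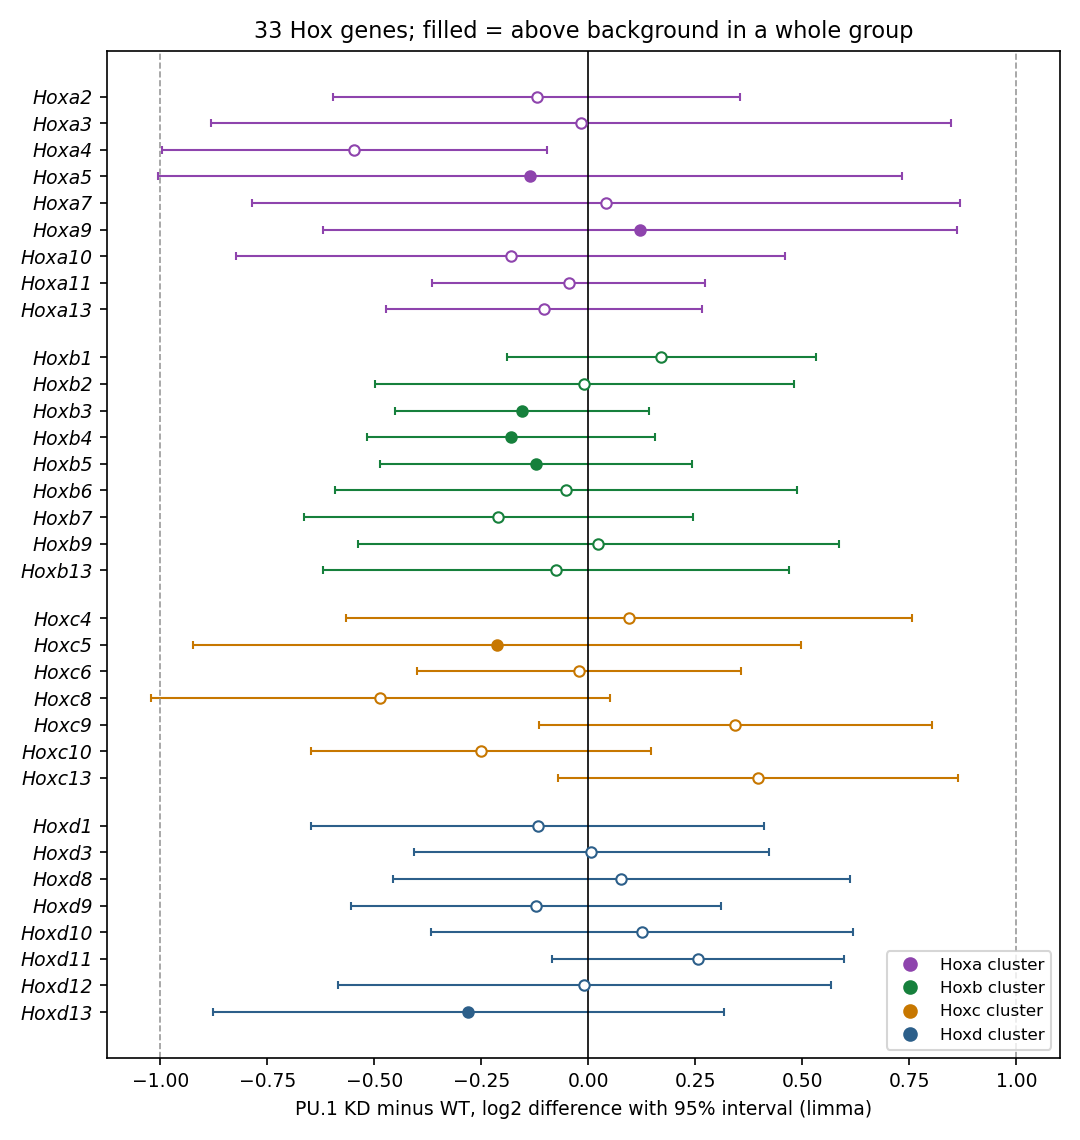
Difference between PU.1 KD and WT pools on the log2 scale (x axis) for each of the 33 Hox genes (y axis, by cluster and paralogue number), with the 95% interval of the limma fit; filled points are genes above background in at least 1 whole group, and dashed lines mark 2-fold. The differences run from -0.55 to 0.40, and among the filled points only the interval of Hoxa5 crosses a dashed line.

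Hoxa9, which keeps stem and progenitor cells in an immature state, had log2 values of 11.13, 11.17 and 11.70 in PU.1 KD pools, against 10.68, 11.92 and 11.03 in WT pools. The highest and the lowest of the 6 values were both WT pools, so the PU.1 KD pools lay inside the WT range. Means were 11.33 ± 0.32 in PU.1 KD and 11.21 ± 0.64 in WT pools (SD, n = 3 each), or 2604 ± 672 and 2488 ± 1136 in deposited intensity units. The difference of 0.12 (SE 0.32) had a 95% interval of -0.62 to 0.86, which is 0.651 to 1.82 of the WT level, and an exact two-sided permutation p of 0.8, where 3 against 3 cannot go below 0.1. Without WT pool 2 it was 0.48, but it turned to -0.14 without WT pool 1 and to -0.060 without PU.1 KD pool 3.

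Its second probe set (1421579_at) was dimmer and exceeded background in 1 PU.1 KD pool only. It read 7.70, 7.25 and 7.70 in PU.1 KD pools, against 6.57, 7.46 and 6.92 in WT pools. WT pool 2 lay above PU.1 KD pool 2, so the groups overlapped, and the difference of 0.57 (SE 0.25) had a limma adjusted p of 0.706. Both Hoxa9 probe sets thus had the higher mean in PU.1 KD pools, by different amounts.

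Hoxa5, a gene of the same cluster that is active in haematopoietic progenitors, had 8.50, 8.74 and 9.14 in PU.1 KD pools, against 8.57, 9.84 and 8.38 in WT pools. WT pool 2 was again highest, and the other 2 WT pools lay near the lowest PU.1 KD pool. The difference was -0.14 (SE 0.38, 95% interval -1.01 to 0.73, exact permutation p 0.9). Its sign depended on WT pool 2: without it the difference was 0.32, and with array weights, which gave that pool a weight of 0.591, it was 0.12. Without PU.1 KD pool 1 the difference was 0.014. A further Hoxa5 probe set (1443803_x_at) was above background on 0 arrays, so no fold is read from it.

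Among Hoxa genes outside the background call, Hoxa3 and Hoxa10 had the same order of pools at the top as Hoxa5 and Hoxa9. Hoxa10, a regulator of progenitor growth, read 6.46, 6.82 and 6.99 in PU.1 KD pools, against 6.59, 7.55 and 6.67 in WT pools. Hoxa3 read 6.84, 7.42 and 7.76 in PU.1 KD pools, against 7.27, 8.11 and 6.69 in WT pools. In all 4 genes WT pool 2 was highest and PU.1 KD pool 3 next, a pattern noticed after the values were seen. WT pool 2 was highest of all for 6 of the 33 Hox genes, or 18.2%, the same share as the 18.2% of all genes. By cluster these were 5 of 9 Hoxa, 0 of 9 Hoxb, 1 of 7 Hoxc and 0 of 8 Hoxd genes. WT pool 2 was also highest for 4 of 8 TALE cofactors, 8 of 21 MLL and trithorax genes and 10 of 20 Polycomb genes. It was highest for 10 of 16 stem markers, but for 0 of 16 Cdx and retinoid genes and 0 of 12 neutrophil granule genes. That pool also had the highest stem marker mean and the lowest neutrophil granule mean, and their part in the Hoxa values was not tested. In such bulk samples, fewer cells of a type and less RNA per cell cannot be told apart.

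**Figure D2:**
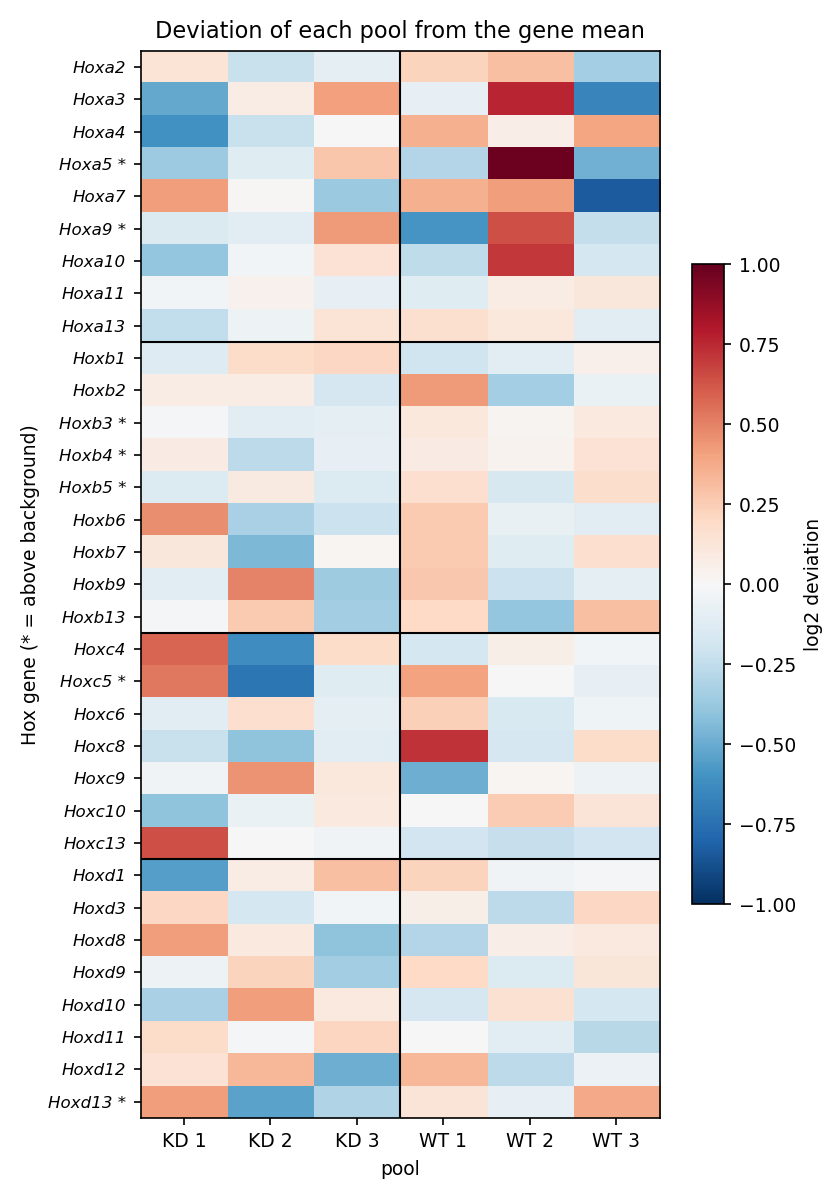
Deviation of each pool from the gene's mean over 6 arrays (colour, log2 scale, red above and blue below) for the 33 Hox genes (rows, by cluster) in PU.1 KD pools 1 to 3 and WT pools 1 to 3 (columns); asterisks mark genes above background in at least 1 whole group. WT pool 2 is red for Hoxa3, Hoxa5, Hoxa9 and Hoxa10, while rows Hoxb3, Hoxb4 and Hoxb5 are pale in all pools.

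Hoxa4 (1420226_x_at) was the Hox gene of smallest p. It read 5.65, 6.03 and 6.26 in PU.1 KD pools, against 6.61, 6.32 and 6.65 in WT pools, all below background. The groups were separate. The exact permutation p was the smallest this design allows, 0.1, while the limma p of 0.0231 became 0.655 after adjustment over all probe sets. Its suffix marks a probe set that may bind related transcripts. Hoxa2, Hoxa7, Hoxa11 and Hoxa13 were also below background, and their groups overlapped.

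Hoxb genes above background varied less between pools than Hoxa5 and Hoxa9. Hoxb3 had 8.47, 8.38 and 8.40 in PU.1 KD pools, against 8.60, 8.52 and 8.59 in WT pools. Its 6 values spanned 0.22, a range smaller than that of all but 5.39% of the 7370 genes above background on 6 arrays, whereas the Hoxa9 range of 1.24 exceeded that of 94.7% of them. All PU.1 KD pools lay below all WT pools by a small margin. PU.1 KD minus WT was -0.15 (SE 0.13, 95% interval -0.45 to 0.14), or 0.899 of the WT level, with a limma adjusted p of 0.842 and an exact permutation p of 0.1. On the other Hoxb3 probe set (1427605_at), also above background, the difference was -0.16 (SE 0.19) and the groups overlapped.

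Hoxb4, the gene known for expanding mouse HSC when forced, had 8.32, 7.98 and 8.16 in PU.1 KD pools, against 8.32, 8.28 and 8.39 in WT pools. PU.1 KD pools 2 and 3 lay below every WT pool, and PU.1 KD pool 1 lay among them. The difference was -0.18 (SE 0.15, 95% interval -0.52 to 0.16, exact permutation p 0.2), or 0.882 of the WT level. The second Hoxb4 probe set (1451761_at) read 5.61, 5.44 and 5.31 in PU.1 KD pools, against 5.65, 5.69 and 5.89 in WT pools, below background throughout.

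Hoxb5, known as a marker of long-term HSC in mice, had 7.92, 8.14 and 7.92 in PU.1 KD pools, against 8.22, 7.89 and 8.23 in WT pools. PU.1 KD pool 1 and WT pool 2 only just exceeded the background level of their arrays, and the groups overlapped. The difference was -0.12 (SE 0.16, 95% interval -0.49 to 0.24, exact permutation p 0.4). Hoxb3, Hoxb4 and Hoxb5 thus each had a slightly lower PU.1 KD mean, and this sign held with arrays centred on medians. The values as deposited gave the same sign but could not test it. Every PU.1 KD array had a lower median intensity there than every WT array, which favours a lower PU.1 KD mean. For all 3 genes the 95% interval lay inside 1.5-fold in both directions. The remaining Hoxb genes, Hoxb1, Hoxb2, Hoxb6, Hoxb7, Hoxb9 and Hoxb13, had overlapping groups.

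**Figure D3:**
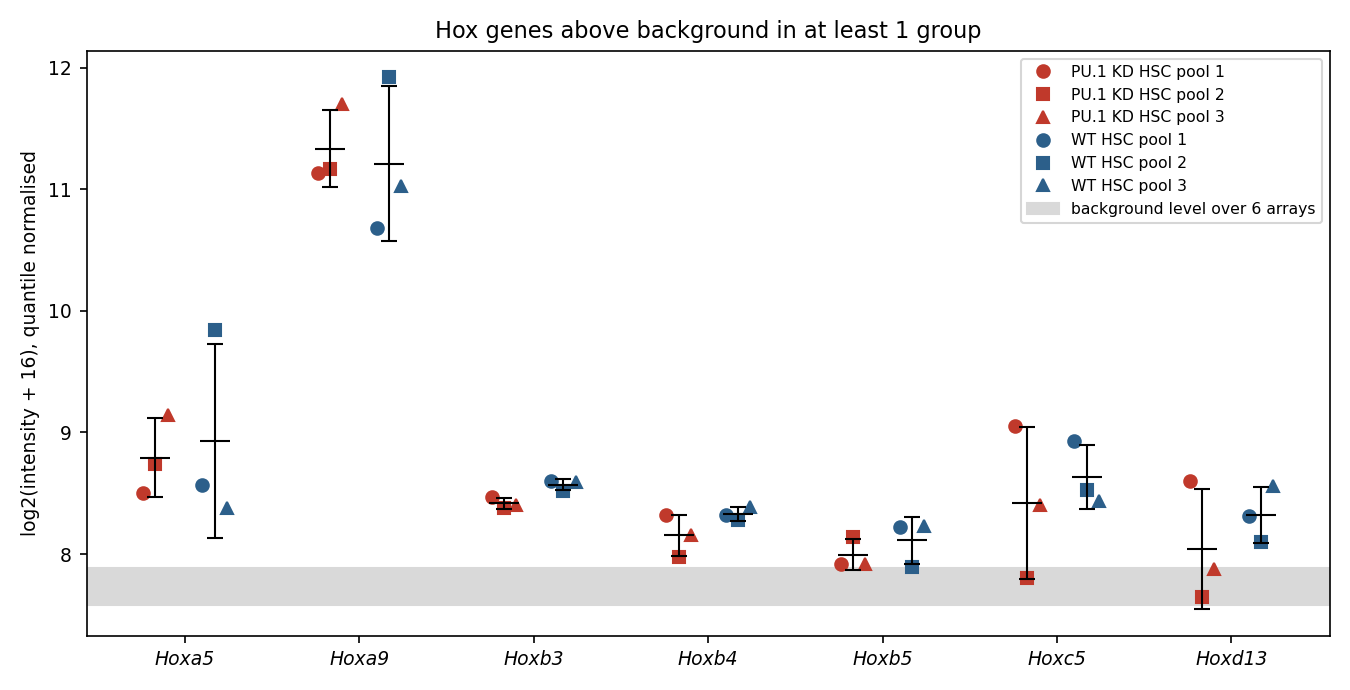
Log2(intensity + 16) after quantile normalisation (y axis) of the 7 Hox genes above background in at least 1 whole group (x axis), with PU.1 KD pools in red and WT pools in blue; bars are mean ± SD of 3 pools and the grey band is the background level over the 6 arrays. Hoxa9 lies far above the band, WT pool 2 is highest for Hoxa5 and Hoxa9, and Hoxb3 shows the narrowest spread.

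In the Hoxc and Hoxd clusters, whose genes pattern the trunk and limbs, 1 gene of 7 and 0 of 8 were above background on all arrays. Hoxc5 had 9.05, 7.80 and 8.40 in PU.1 KD pools, against 8.93, 8.53 and 8.44 in WT pools. PU.1 KD pools held both the highest and the lowest value, and the difference was -0.21 (SE 0.31, 95% interval -0.92 to 0.50, exact permutation p 0.6). Its second probe set (1456301_at) differed by 0.49 (SE 0.34), opposite in sign to the first, and exceeded background in 1 PU.1 KD pool only. The third Hoxc5 probe set (1439885_at) was below background on all arrays, so no fold is read from it. Without PU.1 KD pool 2 the Hoxc5 difference turned to 0.093.

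Hoxd13, a gene of distal limb development, had 8.60, 7.65 and 7.88 in PU.1 KD pools, against 8.31, 8.10 and 8.56 in WT pools. PU.1 KD pool 1 was highest of all and the other 2 lowest, so the groups overlapped. The difference of -0.28 (SE 0.26, 95% interval -0.88 to 0.32, exact permutation p 0.5) was not shared by its second probe set (1440626_at), which was below background on all arrays and had the higher mean in PU.1 KD pools. Without PU.1 KD pool 1 the Hoxd13 difference was -0.56, without WT pool 3 it was -0.16, and without PU.1 KD pool 2, the lowest array for Hoxc5 and Hoxd13 alike, it was -0.083. For Hoxc5 and Hoxd13 the call above background therefore rested on 1 probe set each. The same held for Hoxa5, Hoxa9, Hoxb4 and Hoxb5, and only Hoxb3 had 2 probe sets above background on all arrays. At the 99th percentile of the olfactory receptor probe sets, Hoxa9 alone stayed above background on all arrays.

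Hoxc13 was the Hox gene with the largest positive difference and separated groups, but it was dim. It read 5.66, 5.02 and 4.98 in PU.1 KD pools, against 4.83, 4.79 and 4.83 in WT pools. All values lay below background, and PU.1 KD pool 1 stood above the other 2 (limma adjusted p 0.743). Hoxc8 read 5.58, 5.40 and 5.69 in PU.1 KD pools, against 6.52, 5.63 and 5.98 in WT pools, also below background and overlapping.

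By paralogue number, all 3 members of number 5 on the array (Hoxa5, Hoxb5 and Hoxc5) were above background on 6 arrays. Among the 10 genes of numbers 1 to 4 there were 2, Hoxb3 and Hoxb4, and among the 14 genes of numbers 9 to 13 there was 1, Hoxa9. Median differences were -0.07 for numbers 1 to 4, -0.12 for numbers 5 to 8 and -0.03 for numbers 9 to 13. By cluster the medians were -0.10 for Hoxa, -0.07 for Hoxb, -0.02 for Hoxc and -0.00092 for Hoxd, beside 0.02 for all genes. These medians include genes below background on every array, namely 6 of 9 Hoxa, 4 of 9 Hoxb, 6 of 7 Hoxc and 7 of 8 Hoxd genes. The Hoxa median turned to 0.12 without WT pool 2 and was -0.32 without WT pool 3, so its direction rested on WT pool 2. With 1 array left out, the medians took both signs in the other clusters too, from -0.18 to 0.044 for Hoxb, -0.11 to 0.093 for Hoxc and -0.13 to 0.065 for Hoxd.

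Of the 11 Hox genes with more than 1 probe set, 5 had the same sign on all of them and 6 did not. Hoxa3, Hoxa4, Hoxb3 and Hoxb4 were lower in PU.1 KD pools on every probe set, with differences from -0.45 to -0.02 for the 4 of Hoxa3, and Hoxa9 was higher on both. Of these 5 genes, Hoxb3 alone had more than 1 probe set above background on all arrays. Hoxa5, Hoxa10, Hoxc5, Hoxc6, Hoxd8 and Hoxd13 had mixed signs, and none of them had more than 1 such probe set. Every probe set of Hoxa10, Hoxc6 and Hoxd8 was below background on all arrays, so their mixed signs are not read as a conflict.

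**Figure D4:**
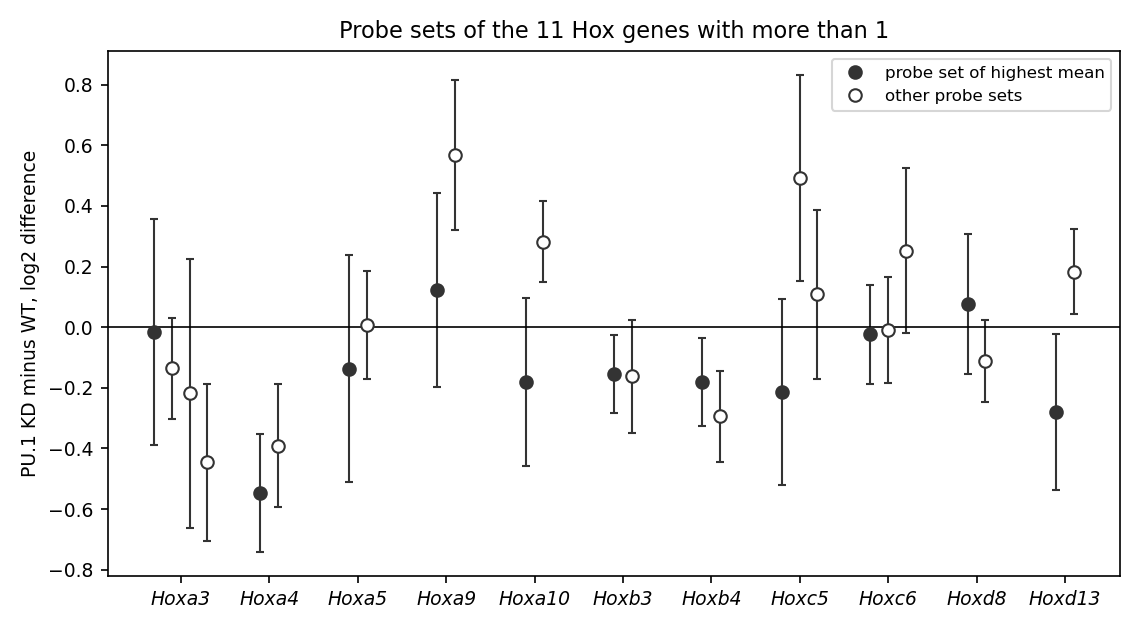
Log2 difference between PU.1 KD and WT pools (y axis, with the SE of the limma fit) for every probe set of the 11 Hox genes that have more than 1 (x axis); filled points are the probe sets of highest mean used for the gene. Hoxb3 and Hoxb4 probe sets sit together below 0, whereas those of Hoxa10, Hoxc5 and Hoxd13 lie on both sides of 0. Hoxa10, Hoxc5 and Hoxd13 each had at most 1 probe set above background on all arrays.

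Cofactors and regulators of Hox genes were read from lists by the same test, and 0 of them passed limma's test over all probe sets, as did 0.0% of all probe sets. At an unadjusted p under 0.05 there were 0 of 8 TALE cofactors, 2 of 21 MLL and trithorax genes, 1 of 20 Polycomb genes and 2 of 16 Cdx and retinoid genes, against 7.63% of all genes. TALE cofactors had 4 of 8 members lower and 4 higher in PU.1 KD pools, with a median difference of 0.05. Meis1, the main partner of Hoxa9 in blood, had 10.19, 9.78 and 10.04 in PU.1 KD pools, against 9.88, 10.54 and 9.97 in WT pools. WT pool 2 was highest here too, and the difference of -0.13 (SE 0.21) turned to 0.079 without it. Pbx2 and Pknox1 were the other members above background on all arrays, and Meis2, Pknox2 and Meis3 were below it on every array and are given no fold.

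MLL and trithorax genes had 10 of 21 members lower and 11 higher, with a median of 0.03, and 18 were above background on 6 arrays. Men1, which encodes menin, the MLL partner needed for Hoxa9 expression, had 9.21, 8.92 and 8.86 in PU.1 KD pools, against 8.49, 8.63 and 8.68 in WT pools. The groups did not overlap, and the difference of 0.40 (SE 0.15) had a limma p of 0.0317 and an adjusted p of 0.675. Aff1, a gene of the elongation complex recruited by MLL fusions, had 9.07, 9.45 and 9.36 in PU.1 KD pools, against 9.88, 9.46 and 9.78 in WT pools (difference -0.41, SE 0.17, limma adjusted p 0.695). Leo1 and Mllt3 differed by 0.35 (SE 0.16) and -0.45 (SE 0.26), and Mllt3 by -0.17 without WT pool 2. Leo1 was above background in all PU.1 KD pools but 1 WT pool only, and Mllt3 in 2 PU.1 KD pools and all WT pools.

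Polycomb genes had 8 of 20 members lower and 12 higher, with a median of 0.04. Bmi1, a Polycomb subunit needed for HSC self-renewal, had 7.76, 8.37 and 8.52 in PU.1 KD pools, against 8.55, 8.82 and 8.70 in WT pools. All PU.1 KD pools lay below all WT pools, and the difference of -0.47 (SE 0.22) had a limma adjusted p of 0.721 and was -0.24 without PU.1 KD pool 1. Bmi1 was above background in 2 PU.1 KD pools and in all WT pools. Cbx7, a Polycomb chromodomain gene, differed by -0.39 (SE 0.17) with separated groups, but was above background in 0 PU.1 KD and 2 WT pools. Cbx2 differed by 0.52 (SE 0.28), by 0.86 without WT pool 2 and by 0.27 without WT pool 1. Pcgf2 was below background on all arrays and is given no fold. In these 3 lists, separated groups were seen for 0 of 8, 4 of 21 and 3 of 20 members, beside 13.8% of all genes.

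Cdx factors, which switch on Hox genes in the embryo, and genes of the retinoid pathway, which does so too, had 5 of 16 members lower and 11 higher, with a median of 0.13. Cdx1, Cdx2 and Cdx4 were below background on all arrays. Rxra, a retinoid X receptor gene, had 7.87, 7.41 and 7.74 in PU.1 KD pools, against 7.46, 7.01 and 7.07 in WT pools. The groups overlapped, 1 of the 6 values was above background, and the limma adjusted p was 0.675. Rarb, Rara and Crabp1, all below background, are given no fold.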

How the data were processed

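Total RNA of sorted HSC was amplified in 2 rounds of reverse transcription and in-vitro transcription and hybridised to Affymetrix arrays, per the labels' protocols. The authors deposited 1 processed intensity per probe set and array, on a linear scale. Neither the software nor its background correction and scaling is given in the labels. Array medians were 81.4 to 89.0 for PU.1 KD and 90.0 to 91.5 for WT pools, and 264 to 409 values per array were below 0.

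Values under 1 were set to 1, log2(value + 16) was taken, and the arrays were quantile normalised, so changes of weak probe sets are understated. All 44991 probe sets entered limma 3.58.1 (R 4.3.3, lmFit and eBayes, two-sided, Benjamini-Hochberg over all probe sets, threshold 0.05), first tested on simulated data. Symbols came from the platform annotation, and all 33 matched RefSeq gene IDs of GRCm38.p6. Probe sets with several symbols (930) or none (9140) were tested but not named. Intensities of different probe sets depend on their probes and are not compared between genes. Hox genes above background in a whole group were given in full, and from each regulator list the 2 lower and 2 higher members with the smallest p; Hoxa3, Hoxa4, Hoxa10, Hoxc8 and Hoxc13, and further list members, were named after their values were seen. Members and lists were chosen with earlier results of these data known. Python 3.11.15 made the figures.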

Additional observations from a re-analysis of the deposited data

How the results depend on the processing

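Under the alternatives with all arrays, 0 Hox probe sets passed, with the median difference of the Hox genes between -0.112 (values as deposited) and -0.029 (pseudocount 64). Replicate numbers of the pools are shared by the groups. Deviations of same-numbered pools correlated with r of 0.178, 0.061 and -0.039, beside -0.198 to 0.154 for the other pairs of pools. With the replicate number as a block 0 Hox probe sets passed and the median stayed at -0.052. Leaving out 1 array gave 0 Hox calls each time and a median from -0.102 to -0.020; over all probe sets it gave 0 to 2 calls. Hox genes above background on 6 arrays numbered 6 at the 95th percentile of olfactory receptor probe sets, 7 at the 90th, 1 (Hoxa9) at the 99th and 10 against the median of all probe sets. With array weights the Hoxa5 difference reversed to 0.12 and that of Meis2 to 0.026. With 1 array left out the differences ranged from -0.41 to 0.32 for Hoxa5, -0.14 to 0.48 for Hoxa9, -0.53 to 0.093 for Hoxc5, -0.56 to -0.083 for Hoxd13, -0.25 to 0.079 for Meis1, -0.12 to 0.075 for Meis2 and -0.026 to 0.29 for Meis3. Meis2 and Meis3 were below background on every array, so no fold is read from their differences. Lower PU.1 KD means were seen for 25 of 33 Hox genes with values as deposited, where Hoxa7, Hoxb9 and Hoxd3 turned lower. In that setting every PU.1 KD array had a lower median intensity than every WT array, and the share of all genes is not given. With arrays centred on medians the count was 21. It was 17 without PU.1 KD pool 3, and 12 of 16 after a filter at the 40th percentile. Separated groups numbered 5 with centred arrays, 1 of 16 after the filter and 4 to 9 with 1 array left out. With fewer pools, groups separate more easily, and the shares of all genes in these settings are not given here, so these counts are not read further. The causes were not tested. Signal near background limits 23 of the 33 genes.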

Other observations

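Beside the single-symbol probe sets, 3 probe sets carried 2 Hox symbols and 5 belonged to opposite-strand transcripts of the clusters; they were looked at after the other values were known. Hoxb5os (1447886_at), a transcript opposite to Hoxb5, read 5.92, 5.99 and 6.04 in PU.1 KD pools, against 7.38, 7.57 and 6.34 in WT pools. The groups did not overlap (limma p 0.00624, adjusted p 0.545), and all 6 values were below the background level, so no fold is read from them. Hoxa11os (1452400_a_at), opposite to Hoxa11, read 6.69, 6.30 and 6.74 in PU.1 KD pools, against 6.03, 5.89 and 6.20 in WT pools, also separated and below background (limma adjusted p 0.604). The probe set shared by Hoxb8 and Hoxb7 (1452493_s_at) read 7.45, 6.68 and 6.87 in PU.1 KD pools, against 7.11, 7.13 and 7.19 in WT pools, and its groups overlapped.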
